A study of Mus musculus with 9 samples.

Results

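The 10 genes described here encode the 5 subunits of the transcription factor NF-kB (Nfkb1, Nfkb2, Rela, Relb and Rel) and 5 regulators that NF-kB itself can induce, of which some inhibit it and some modify its action in the nucleus (Nfkbia, Nfkbie, Nfkbiz, Tnfaip3 and Bcl3). They were taken by symbol from the 23337 genes counted in every library, and all 10 were found and passed the filter on low counts. Their RNA was measured in CD11b+ bone marrow cells, the myeloid cells of the marrow, from 9 male C57BL/6 mice, obtained at 3 to 6 weeks of age, with 1 library per mouse. The study asked how extracellular vesicles (EVs) of prostate cancer cells act on marrow cells, and whether nanoparticles that mimic high-density lipoprotein (HDL NPs) alter this. The 3 PBS mice were given vehicle, 100 µl by tail vein on days 1, 3 and 5. The 3 EnzR EV mice were given 10 µg of EV protein on the same days, from human CWR-R1 prostate cancer cells made resistant to the anti-androgen enzalutamide. The 3 EnzR EV + HDL NP mice received these EVs and also HDL NPs on days 0, 2 and 4, at a concentration that is 1 µM in the sample labels and 100 µM in the methods. No group received HDL NPs alone or EVs of another cell, so the differences cannot be assigned to HDL NPs or to the tumour origin of the EVs by themselves. Marrow was taken 24 h after the last injection. The cells were enriched with a CD11b selection kit and read as a mixture, and in such bulk samples fewer cells of a type and less RNA per cell cannot be told apart.

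NF-kB is a dimer that waits in the cytoplasm of resting cells, bound by inhibitor of kB (IkB) proteins. Signals from Toll-like, interleukin-1 and tumour necrosis factor receptors activate a kinase that marks the IkB proteins for destruction, and the freed dimer then switches on inflammatory genes in the nucleus. Several of those genes encode its own subunits and inhibitors, so that the RNA of these genes is widely read as a trace of recent NF-kB activity in myeloid cells.

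The promoters of the 10 genes are shown first because this feedback runs through them. Promoter windows from RefSeq on GRCm38.p6, 250 bases before to 50 bases after an annotated start site, were searched on both strands for the 10-base kB motif, and 7 of the 10 genes had at least 1 window (10 windows in all). Of these 7 genes, 6 held a match (85.7%), against 5.14% of all 27025 genes with a window and 4.51% of all 32851 windows. A match is a description of the letters and not of a bound site. The stretches below each give 30 bases on the strand of the gene, 5′ to 3′, with the matching bases in capitals.
Nfkb2 (chr19:46304688-46304717): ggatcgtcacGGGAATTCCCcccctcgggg
Nfkb2, a second start site (chr19:46305695-46305724): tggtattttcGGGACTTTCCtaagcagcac
Rel (chr11:23771042-23771071): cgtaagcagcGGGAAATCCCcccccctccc
Nfkbia (chr12:55492657-55492686): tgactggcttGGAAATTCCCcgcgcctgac
Nfkbie (chr17:45555584-45555613): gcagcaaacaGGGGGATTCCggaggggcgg
Tnfaip3, far from the start (chr10:19015516-19015545): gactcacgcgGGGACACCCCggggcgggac
Tnfaip3, near the start (chr10:19015403-19015432): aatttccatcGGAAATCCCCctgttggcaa
Bcl3 (chr7:19822734-19822763): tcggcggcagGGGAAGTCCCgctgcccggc
The matches of Nfkbia and of Nfkb2 began 29 and 39 bases before the start site, and that of Bcl3 lay just after it, 2 bases from the start. Rel matched at 92 bases before its start, with another match shifted by a single base at 91, and Nfkbie matched at 106. Tnfaip3 held 2 matches in a single window, at 125 and 12 bases before the start, and Nfkb2 held more than 1 match in 2 of its 3 windows, 1 of them shifted by a single base from its neighbour. The window of Rela (chr19:5637291-5637590) held none. Among the pathway genes used further on, a match was found in 3 of 25 upstream signalling genes with a window, 5 of 21 other regulators and 16 of 40 target genes.

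**Figure D1:**
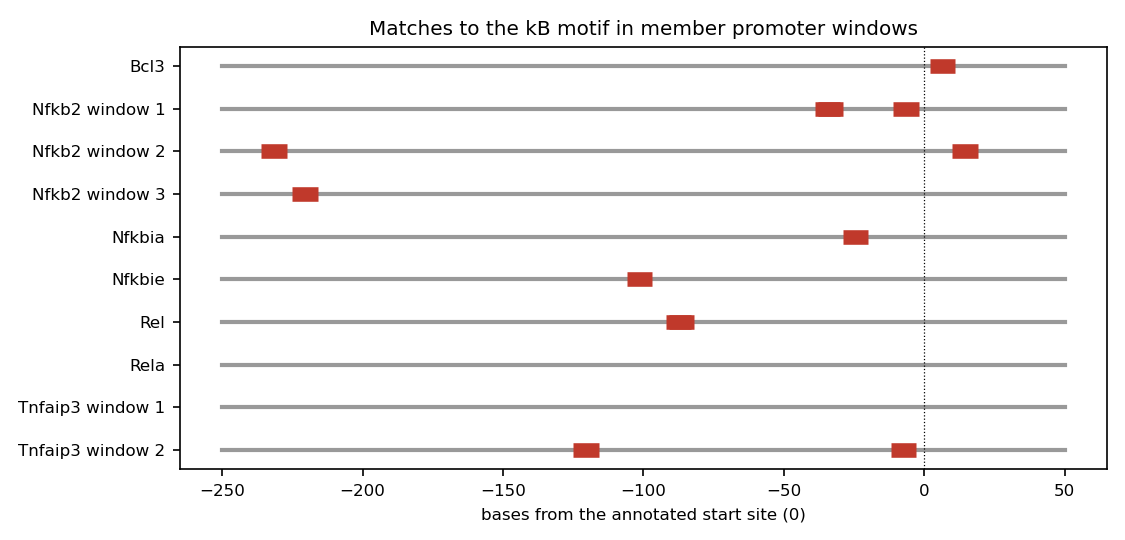
Positions of kB motif matches (red) in the promoter windows (grey lines) of the 7 genes with a RefSeq window, as bases from the annotated start site at 0. All but Rela and 1 of the 2 Tnfaip3 windows hold at least 1 match, and those of Nfkbia, Bcl3 and the first Nfkb2 window lie within 50 bases of the start.

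Total counts per library ranged from 2575776 to 18110561, and 12553 genes passed the filter. Reads of ribosomal RNA (Rn45s) made up 42.7% of EnzR EVs replicate 1, 20.3% of PBS replicate 1, 14.2% of EnzR EVs replicate 3 and at most 2.87% elsewhere. EnzR EVs replicate 1, the smallest library, was also the lowest of the 9 for 6 of the 10 genes and the highest for Bcl3. The sum of 15 neutrophil lineage markers was lowest there too, at 33791 CPM (counts scaled by library total and TMM factor) against 59071 to 152272 in the others, while Itgam and Itgb2, the chains of the receptor that CD11b belongs to, summed to between 2759 and 3607 CPM in all 9. B lineage markers summed to at most 47.0 CPM, T and NK markers to at most 90.0, and 10 monocyte markers to between 2104 and 4059. Other marker sums separated EnzR EV mice from PBS mice. The 10 marrow macrophage markers summed to between 795 and 1424 CPM in PBS mice and between 626 and 771 in EnzR EV mice. For 11 erythroid markers (Hba-a1 and Hba-a2 at 0 in all libraries) the sums were 225 to 360 against 160 to 213. In EnzR EV + HDL NP mice these sums were 712 to 910 and 121 to 417 CPM and overlapped both other groups. Both sums lay lower in EnzR EV mice than in PBS mice, as Nfkbiz did, but single markers did not all follow them. Vcam1 was 206, 274 and 401 CPM in PBS mice and 174, 194 and 172 in EnzR EV mice. C1qb was 63.0, 46.9 and 68.9 CPM against 191, 45.9 and 66.9. Of the erythroid markers, Beta-s was 45.8, 186 and 194 CPM against 13.2, 105 and 30.9, while Epor was highest in EnzR EVs replicate 1 (4.39 CPM). Neither separation held without Vcam1 or Beta-s, respectively. Between PBS replicate 1 and EnzR EVs replicate 1, Vcam1 differed by more than the macrophage sums did (795 and 771 CPM). Between PBS replicate 2 and EnzR EVs replicate 1, Beta-s differed by more than the erythroid sums did (326 and 160 CPM). The 18 immediate-early and stress genes, Dusp1 among them, summed to between 3952 and 5071 CPM in PBS mice and between 2479 and 3672 in EnzR EV + HDL NP mice, lower in the same mice as Tnfaip3. In EnzR EV mice they summed to between 3197 and 4779 CPM. The part of cell makeup, cell handling and ribosomal reads in the values of the 10 genes was not tested. For the 10 genes, values that moved most without EnzR EVs replicate 1 are given below with and without it.

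Scaled by transcript length, the inhibitor Nfkbia was the most abundant of the 10 genes. Its level in the PBS mice was 91.5 ± 9.49 CPM per kb (SD, n = 3), and it lay above every other of the 10 genes in all 9 mice. Nfkbiz at 50.3 ± 4.86 and Nfkb1 at 43.6 ± 6.75 CPM per kb came next and overlapped in every group. Rela followed at 22.3 ± 1.72 CPM per kb, below Nfkb1 and above Tnfaip3 (16.0 ± 2.18) in all 9 mice. Tnfaip3, Nfkb2 (12.8 ± 0.712) and Nfkbie (10.7 ± 0.928) did not overlap in PBS mice but overlapped in both other groups. Bcl3 (8.42 ± 4.08), Rel (5.26 ± 0.753) and Relb (4.36 ± 0.606) had the lowest means in PBS mice, where Bcl3 overlapped Nfkbie and Rel, and Rel overlapped Relb. In EnzR EV mice the mean of Bcl3 (16.9 ± 17.0) was above those of Tnfaip3, Nfkb2 and Nfkbie. Among the subunits, Nfkb1 made up 49.2% ± 5.32 of the summed level per length in PBS mice, 47.0% ± 6.87 in EnzR EV mice and 53.9% ± 3.57 in EnzR EV + HDL NP mice. Rela made up 25.4% ± 3.30, 28.0% ± 6.38 and 22.6% ± 1.64 in the same order, so that this pair formed the bulk of the subunit RNA in each group.

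**Figure D2:**
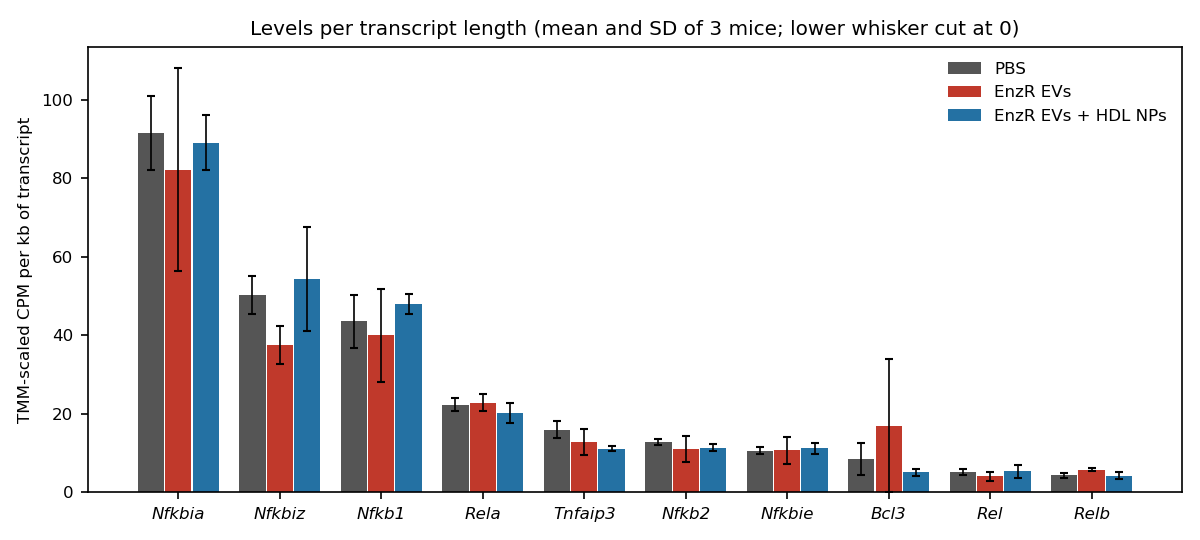
Level of each gene in TMM-scaled CPM per kb of its longest coding transcript, as the mean of 3 mice with the SD as whiskers, for PBS (grey), EnzR EVs (red) and EnzR EVs + HDL NPs (blue). Nfkbia stands highest in each group, and the SD of Bcl3 in EnzR EV mice (17.0 CPM per kb) is as large as its mean (16.9).

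The comparison of EnzR EVs with PBS asks whether the vesicles alone moved these genes. By edgeR's quasi-likelihood test with Benjamini-Hochberg adjustment over all tested genes, 0 of the 10 genes passed an adjusted p of 0.05 (adjusted p 0.928 to 0.990), where 0% of all genes did. At an unadjusted p under 0.05 the count was 0 in either direction, against 1.55% of all genes higher and 1.92% lower. All 3 EnzR EV mice lay above all 3 PBS mice for 1 gene, Relb (3.43% of all tested genes did so), and below them for 1 gene, Nfkbiz (4.52% of all genes). The median log2 fold change of the 10 genes was -0.13, beside -0.03 for all tested genes.

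For EnzR EVs + HDL NPs against PBS, 0 of the 10 genes passed as well (edgeR, adjusted p 1.00 for each), where 0% of all genes did. Tnfaip3 alone had an unadjusted p under 0.05 in edgeR and was lower (1.12% of all genes were lower at that level and 1.02% higher). The groups did not overlap for Nfkb2 and Tnfaip3, both lower with EnzR EVs + HDL NPs (6.21% of all genes), and 0 of the 10 genes lay wholly higher (6.96% of all genes). The median log2 fold change was -0.05, beside -0.01 for all tested genes.

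For EnzR EVs + HDL NPs against EnzR EVs, which asks what the addition of HDL NPs changed, 0 of the 10 genes passed (edgeR, adjusted p 0.461 to 0.977), where 0% of all genes did. At an unadjusted p under 0.05, Nfkbiz was higher (3.58% of all genes) and Bcl3 lower (6.97%). Relb and Bcl3 lay wholly lower without overlap (8.58% of all genes), and 0 of the 10 genes lay wholly higher (8.99%). The median log2 fold change was 0.03, as for all tested genes (0.03). The first and last comparisons share the EnzR EV mice, and the first 2 share the PBS mice, so their values are not independent. Two-sided exact permutation tests, in which 3 mice against 3 allow no p under 0.10, gave a lowest value of 0.50 once adjusted over the 30 tests made.

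**Figure D3:**
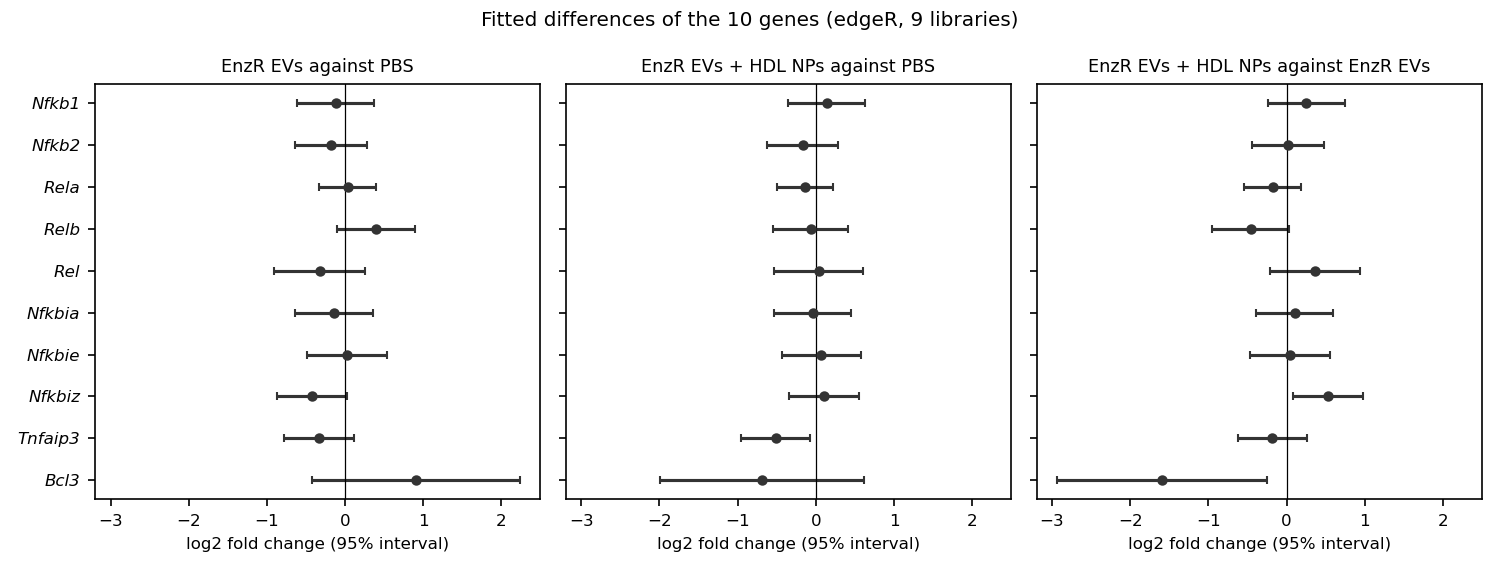
Log2 fold change of each gene in the 3 comparisons from edgeR's fit to 9 libraries, with 95% intervals. The intervals leave out 0 only for Tnfaip3 in EnzR EVs + HDL NPs against PBS and for Nfkbiz and Bcl3 in EnzR EVs + HDL NPs against EnzR EVs, and Bcl3 has the widest interval in each panel.

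Of the subunits, Relb and Nfkb2 form the dimer of the slower, non-canonical pathway, and Relb was the only gene of the 10 whose EnzR EV mice all lay above the PBS mice. Relb (chr7:19606217-19629438 on GRCm38, minus strand, 12 exons) stood at 8.10, 10.5 and 10.4 CPM in PBS mice, at 13.2, 11.9 and 13.5 in EnzR EV mice and at 7.66, 11.4 and 8.73 in EnzR EV + HDL NP mice. The EnzR EV mice formed a tight group above all 6 others. The log2 fold change was 0.39 (95% interval -0.10 to 0.89) for EnzR EVs against PBS, -0.46 (-0.96 to 0.03) for EnzR EVs + HDL NPs against EnzR EVs, and -0.07 (-0.55 to 0.42) for EnzR EVs + HDL NPs against PBS. Without EnzR EVs replicate 1 the first 2 of these were 0.38 and -0.45, close to the values with it, and they kept their sign under each alternative tried. The last did not, and ranged from -0.25 to 0.069 when each mouse in turn was left out. Relb rests on few reads, with 24 counts in EnzR EVs replicate 1 and 223 in EnzR EVs replicate 2.

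Nfkb2 (chr19:46304320-46312385, plus strand, 22 exons) encodes the precursor of the other subunit of that dimer. It stood at 52.1, 46.6 and 48.9 CPM in PBS mice, at 29.1, 44.6 and 53.9 in EnzR EV mice and at 39.9, 45.2 and 46.4 in EnzR EV + HDL NP mice. The last group lay just below the PBS mice, and the EnzR EV mice spread on both sides of them. The log2 fold changes were -0.18 (-0.65 to 0.28) for EnzR EVs against PBS, -0.17 (-0.62 to 0.29) for EnzR EVs + HDL NPs against PBS and 0.02 (-0.44 to 0.48) between the EV groups. The first of these rested on EnzR EVs replicate 1 and was 0.0057 without it, and the last became -0.17. The second was -0.093 without EnzR EVs + HDL NPs replicate 1. Psd and AC114539.1 overlap Nfkb2 on the opposite strand, and since the strand setting of the counting is not given in the sources used here, reads of such partners cannot be told apart.

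Nfkb1 (chr3:135584655-135691547, minus strand, 25 exons), which encodes the precursor of a subunit of the classical dimer, stood at 148, 198 and 193 CPM in PBS mice, at 111, 206 and 177 in EnzR EV mice and at 195, 209 and 189 in EnzR EV + HDL NP mice. The low values came from replicate 1 of the PBS and EnzR EV groups, the libraries with the most ribosomal reads. Its log2 fold changes were -0.12 (-0.61 to 0.37), 0.14 (-0.35 to 0.63) and 0.25 (-0.24 to 0.75) in the order of the comparisons above, and without EnzR EVs replicate 1 the first turned to 0.10 and the last shrank to 0.04. The second fell to 0.014 without PBS replicate 1. Gm43430, a gene model on the same strand, overlaps Nfkb1, and its share of these reads was not tested.

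Rela (chr19:5637483-5648130, plus strand, 11 exons), which carries the activating domain of the classical dimer, varied least of the 10 genes. Its highest library was 1.43-fold above its lowest, with 66.0, 57.2 and 58.9 CPM in PBS mice, 63.1, 56.0 and 67.3 in EnzR EV mice and 47.0, 57.6 and 60.1 in EnzR EV + HDL NP mice. The groups overlapped throughout. The log2 fold changes were 0.03 (-0.33 to 0.40), -0.14 (-0.50 to 0.21) and -0.18 (-0.54 to 0.18), and scaling by library size alone turned the first to -0.14 and the last to 0.05. Such small values moved with single mice. The first was 0.13 without EnzR EVs replicate 2, 0.091 without PBS replicate 1 and -0.040 without EnzR EVs replicate 3. The second was -0.034 without EnzR EVs + HDL NPs replicate 1 and -0.081 without PBS replicate 1. The last was -0.086 without EnzR EVs + HDL NPs replicate 1, -0.10 without EnzR EVs replicate 3 and -0.27 without EnzR EVs replicate 2.

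Rel (chr11:23736847-23770970, minus strand, 10 exons), the c-Rel subunit of blood cells, had 44.4, 40.3 and 33.2 CPM in PBS mice, 21.4, 35.4 and 34.9 in EnzR EV mice and 30.4, 35.6 and 54.6 in EnzR EV + HDL NP mice. The lowest mouse was EnzR EVs replicate 1 and the highest EnzR EVs + HDL NPs replicate 3, and the groups overlapped. The log2 fold changes were -0.33 (-0.91 to 0.25), 0.04 (-0.53 to 0.60) and 0.36 (-0.22 to 0.94). Over all alternatives tried the first ranged from -0.46 to -0.055. Without EnzR EVs replicate 1 the first and last were -0.15 and 0.18, and without EnzR EVs + HDL NPs replicate 3 the last was 0.07 and the second -0.25.

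**Figure D4:**
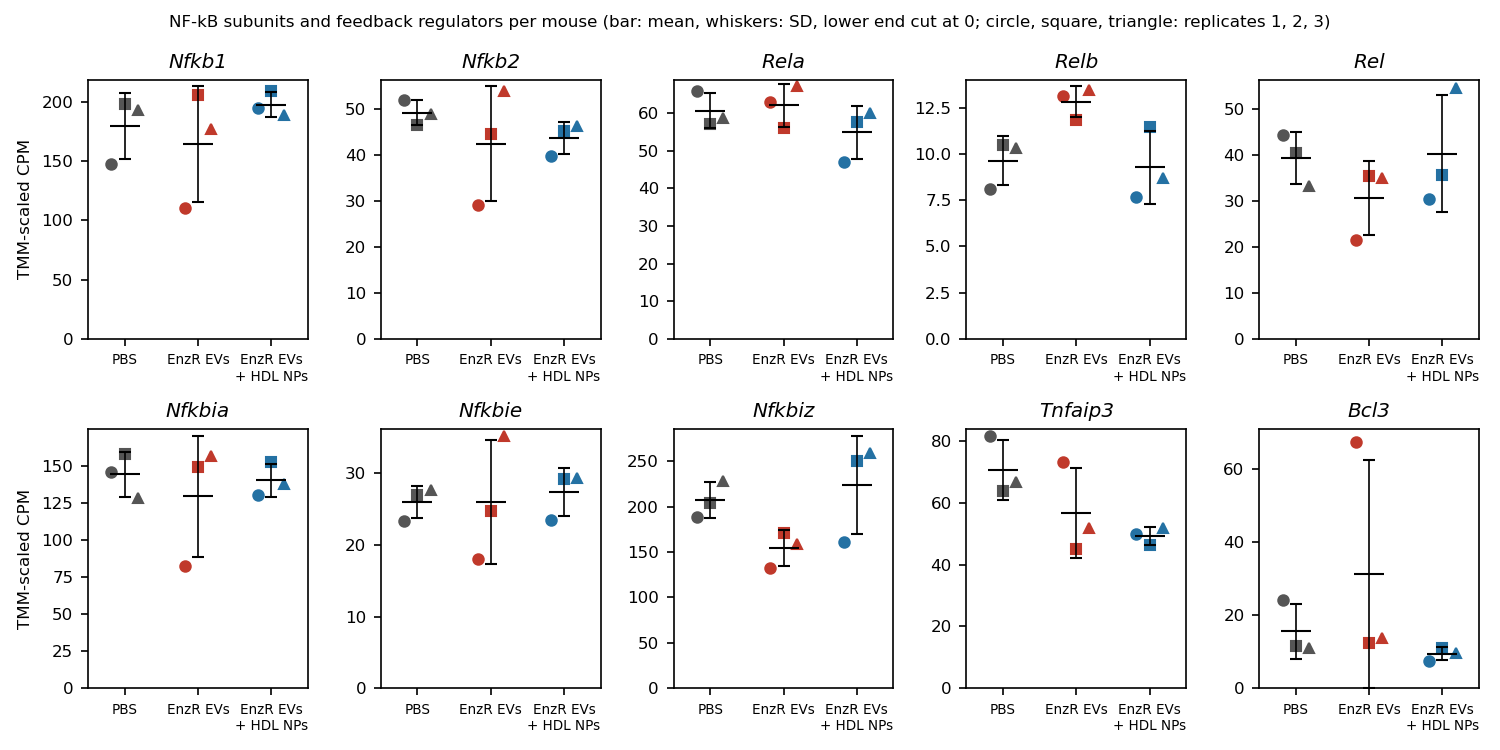
TMM-scaled CPM of the 10 genes in each mouse (circle, square and triangle for replicates 1, 2 and 3), with the mean (bar) and SD (whiskers) of each group of 3. Relb is higher and Nfkbiz lower in all EnzR EV mice than in all PBS mice, and EnzR EVs replicate 1 sits far from its group for Nfkb1, Nfkbia and Bcl3.

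Of the feedback regulators, Nfkbiz encodes a nuclear IkB protein that binds NF-kB on DNA and is needed for a second wave of inflammatory genes, and it was the gene of the 10 whose EnzR EV mice all lay below the PBS mice. Nfkbiz (chr16:55811375-55838899, minus strand, 14 exons) stood at 189, 204 and 228 CPM in PBS mice, at 132, 171 and 159 in EnzR EV mice and at 161, 250 and 259 in EnzR EV + HDL NP mice. With HDL NPs, replicates 2 and 3 were the highest of all 9 mice, while replicate 1 fell within the range of the EnzR EV mice. The log2 fold change was -0.42 (-0.87 to 0.03) for EnzR EVs against PBS and 0.53 (0.08 to 0.98) for EnzR EVs + HDL NPs against EnzR EVs (edgeR, unadjusted p = 0.025, adjusted p = 0.461). For EnzR EVs + HDL NPs against PBS it was 0.11 (-0.34 to 0.56), and from -0.0039 to 0.31 when each mouse in turn was left out. Without EnzR EVs replicate 1 the first 2 values were -0.32 and 0.43. Limma's voom with sample quality weights was the sole setting that called a gene of the 10, Nfkbiz in EnzR EVs against PBS, at -0.43 with an adjusted p of 0.049. That setting called 15.9% of all tested genes in the same comparison. The adjusted p of this difference ranged from 0.049 to 1.00 over the alternatives.

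Tnfaip3 (chr10:19000910-19015657, minus strand, 9 exons), a ubiquitin-editing enzyme that shuts off signalling upstream of the IkB kinase, was lower with HDL NPs than in PBS mice. It stood at 81.7, 63.7 and 66.5 CPM in PBS mice, at 73.0, 45.2 and 51.9 in EnzR EV mice and at 49.8, 46.3 and 52.0 in EnzR EV + HDL NP mice. All 3 EnzR EV + HDL NP mice lay below all PBS mice, and 2 of the 3 EnzR EV mice did as well. The log2 fold change of EnzR EVs + HDL NPs against PBS was -0.52 (-0.95 to -0.08, edgeR, unadjusted p = 0.025, adjusted p = 1.00), and it was -0.40 without PBS replicate 1. For EnzR EVs against PBS it was -0.33 (-0.78 to 0.11), which moved to -0.53 without EnzR EVs replicate 1 and to -0.17 without EnzR EVs replicate 2, and was -0.42 without the pair of replicate 1 mice. Between the EV groups it was -0.18 (-0.62 to 0.26), and it turned to 0.02 without EnzR EVs replicate 1 and to 0.09 when scaled by library size alone.

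Bcl3 (chr7:19808462-19822770, minus strand, 9 exons), a nuclear IkB protein that pairs with the dimers lacking an activating domain, had the widest range. It stood at 24.3, 11.5 and 10.9 CPM in PBS mice, at 67.5, 12.5 and 13.7 in EnzR EV mice and at 7.60, 11.0 and 9.78 in EnzR EV + HDL NP mice. A single mouse, EnzR EVs replicate 1, held a level 8.88-fold above the lowest, and PBS replicate 1 was second. The log2 fold change of EnzR EVs + HDL NPs against EnzR EVs was -1.60 (-2.94 to -0.25, edgeR, unadjusted p = 0.024, adjusted p = 0.461) and shrank to -0.47 without EnzR EVs replicate 1. That of EnzR EVs against PBS was 0.91 (-0.42 to 2.24) and turned to -0.21 without the same library. Leaving out the same-numbered pair, EnzR EVs replicate 1 and PBS replicate 1, gave 0.23. For EnzR EVs + HDL NPs against PBS it was -0.69 (-1.99 to 0.61), and -0.25 without PBS replicate 1. The antisense genes Gm16175 and Gm16174 overlap Bcl3, and their part was not tested.

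Nfkbia (chr12:55489410-55492647, minus strand, 6 exons), the classical IkB protein that NF-kB itself induces within minutes to hours, did not separate the groups 24 h after the last injection. Earlier times were not measured. It stood at 146, 159 and 129 CPM in PBS mice, at 82.9, 149 and 157 in EnzR EV mice and at 131, 153 and 138 in EnzR EV + HDL NP mice. Apart from EnzR EVs replicate 1, the mice of all groups shared a narrow range. The log2 fold changes were -0.14 (-0.64 to 0.35), -0.04 (-0.53 to 0.45) and 0.10 (-0.39 to 0.60). The first and last turned to 0.09 and -0.13 without EnzR EVs replicate 1.

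Nfkbie (chr17:45555703-45563169, plus strand, 6 exons), another cytoplasmic IkB protein, stood at 23.4, 26.9 and 27.6 CPM in PBS mice, at 18.1, 24.7 and 35.2 in EnzR EV mice and at 23.5, 29.3 and 29.3 in EnzR EV + HDL NP mice. Both the lowest and the highest mouse belonged to the EnzR EV group. The log2 fold changes were 0.03 (-0.48 to 0.54), 0.07 (-0.43 to 0.57) and 0.04 (-0.47 to 0.55). Without EnzR EVs replicate 1 the first was 0.20 and the last -0.13, without PBS replicate 1 the second was 0.0031, and scaling by library size alone turned the first to -0.12. Leaving out each mouse in turn, the first ranged from -0.26 to 0.20, the second from 0.0031 to 0.18 and the last from -0.13 to 0.33.

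The intervals set what these data can hold. For Rela they exclude a change of more than 0.54 in either direction on the log2 scale in each comparison, and for Nfkbia more than 0.64, whereas those of Bcl3 reach -2.94 and 2.24.

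Without the 2 libraries with the lowest totals, EnzR EVs replicate 1 and PBS replicate 1, the groups of EnzR EVs and PBS mice did not overlap for 4 of the 10 genes, with Relb and Bcl3 higher and Nfkbiz and Tnfaip3 lower. Taking all 3 mice of each group in same-numbered pairs, Relb and Bcl3 were higher with EnzR EVs in every pair (14.7% of all genes) and Nfkbiz and Tnfaip3 lower (18.3%). With only 2 mice against 2, 20.9% of all genes were then wholly higher and 22.4% wholly lower. With EnzR EVs + HDL NPs, Nfkb2 and Tnfaip3 were still wholly below PBS (10.2% of all genes), and Relb and Bcl3 wholly below EnzR EVs (11.9% of all genes).

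Ratios of counts within a library do not depend on how libraries are scaled, so each gene was also set against Rela, as TMM-scaled CPM over that of Rela. Relb over Rela was 0.123, 0.183 and 0.176 in PBS mice, 0.209, 0.212 and 0.200 in EnzR EV mice and 0.163, 0.199 and 0.145 in EnzR EV + HDL NP mice. The EnzR EV mice again lay above all others, by a small margin over the second mouse with HDL NPs. Nfkbiz over Rela was 2.86, 3.57 and 3.88 in PBS mice, 2.10, 3.06 and 2.36 in EnzR EV mice and 3.43, 4.35 and 4.31 with HDL NPs. On this scale the mice with HDL NPs all lay above the EnzR EV mice, and 1 EnzR EV mouse came within the PBS range. Tnfaip3 over Rela was between 1.11 and 1.24 in PBS mice and 1.06, 0.803 and 0.864 with HDL NPs, wholly below PBS. Nfkbie over Rela was 0.355, 0.470 and 0.469 in PBS mice and 0.499, 0.508 and 0.488 with HDL NPs, wholly above PBS. By level, replicate 1 with HDL NPs (23.5 CPM) lay within the PBS range of Nfkbie. Bcl3 over Rela was 1.07, 0.222 and 0.204 in EnzR EV mice and 0.162, 0.192 and 0.163 with HDL NPs, wholly below them. Each of these separations had an exact permutation p of 0.10 (two-sided), the smallest possible, and 0.45 after adjustment over the 27 ratios tested. Set against Rela in the same way, 3.47% of all other tested genes were wholly higher and 3.49% wholly lower in EnzR EVs against PBS, 11.8% and 1.67% in EnzR EVs + HDL NPs against PBS, and 12.8% and 2.90% between the EV groups.

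Upstream of the 10 genes, 33 adaptors, kinases and ubiquitin ligases that carry signals to NF-kB were tested, and 0 passed an adjusted p of 0.05 by edgeR in any comparison. Of these, 12 lay above and 21 below a log2 fold change of 0 for EnzR EVs against PBS, with a median of -0.11, beside -0.03 for all genes. For EnzR EVs + HDL NPs the split was 24 above and 9 below against PBS (median 0.12, beside -0.01 for all genes) and 23 above and 10 below against EnzR EVs (median 0.20, beside 0.03). Groups that did not overlap were found for 1 gene higher and 3 lower in EnzR EVs against PBS (3.43% and 4.52% of all genes), 8 higher and 1 lower in EnzR EVs + HDL NPs against PBS (6.96% and 6.21%), and 7 higher and 4 lower between the EV groups (8.99% and 8.58%). At an unadjusted p under 0.05 in edgeR there were 2 higher and 0 lower in EnzR EVs against PBS (1.55% and 1.92% of all genes), 0 in either direction in EnzR EVs + HDL NPs against PBS (1.02% and 1.12%), and 1 higher and 3 lower between the EV groups (3.58% and 6.97%). Without EnzR EVs replicate 1 the first median became 0.06 and the last 0.12, and without PBS replicate 1 the second became 0.05. The first was -0.05 without PBS replicate 2 and also by plain voom, and -0.16 without EnzR EVs replicate 2. It was -0.03 without the 2 libraries with the lowest totals.

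Irak4, a kinase of the Toll-like receptor complex, stood at 73.0, 69.8 and 68.1 CPM in PBS mice, at 118, 76.1 and 92.7 in EnzR EV mice and at 62.7, 75.6 and 75.7 with HDL NPs (log2 fold change 0.43 for EnzR EVs against PBS, edgeR adjusted p = 0.928, and 0.27 without EnzR EVs replicate 1). Map3k14, the kinase that starts the non-canonical pathway of Relb and Nfkb2, stood at 31.5, 34.3 and 32.3 CPM in PBS mice and at 23.6, 27.2 and 29.6 in EnzR EV mice. Its EnzR EV mice lay wholly below PBS, opposite in side to Relb (log2 fold change -0.27, edgeR adjusted p = 0.928). Myd88, the adaptor of the same receptor complex as Irak4, was 107, 127 and 107 CPM with HDL NPs and 304, 132 and 189 in EnzR EV mice (log2 fold change -0.86, edgeR adjusted p = 0.461), with EnzR EVs replicate 1 again the highest and a value of -0.50 without it. Tradd, the adaptor of the tumour necrosis factor receptor, was 11.0, 11.0 and 10.9 CPM with HDL NPs, below 21.4, 14.5 and 20.5 in EnzR EV mice (-0.75, edgeR adjusted p = 0.461). On the other side, Ripk2, a kinase that acts behind NOD receptors, was 9.86, 11.7 and 11.7 CPM in PBS mice, 2.19 (from 4 counts), 12.99 and 9.69 in EnzR EV mice and 13.9, 13.6 and 14.5 with HDL NPs. The mice with HDL NPs lay wholly above both other groups, with log2 fold changes of 0.33 against PBS (edgeR adjusted p = 1.00) and 0.59 against EnzR EVs (edgeR adjusted p = 0.500), the latter 0.29 without EnzR EVs replicate 1. Card9, an adaptor of C-type lectin receptors, was 88.0, 115 and 116 CPM in PBS mice and 117, 147 and 129 with HDL NPs (0.30, edgeR adjusted p = 1.00, and 0.18 without PBS replicate 1). Map3k3, a kinase upstream of the IkB kinase, was 70.8, 233 and 180 CPM in EnzR EV mice and 233, 295 and 240 with HDL NPs (0.65, edgeR adjusted p = 0.490, and 0.30 without EnzR EVs replicate 1).

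Beside these 5 regulators, 28 other regulators of inflammatory signalling were tested and 0 passed by edgeR in any comparison, with medians of -0.02, 0.02 and 0.14, beside -0.03, -0.01 and 0.03 for all genes. The last of these turned to -0.08 without EnzR EVs replicate 1, the first to 0.06, and the second to -0.05 without EnzR EVs + HDL NPs replicate 2. With limma's sample quality weights the first was 0.18, with 19 genes above 0 and 9 below, and the last -0.03. The groups did not overlap for 3 of these genes higher and 1 lower in EnzR EVs against PBS (3.43% and 4.52% of all genes), for 3 higher and 2 lower in EnzR EVs + HDL NPs against PBS (6.96% and 6.21%), and for 0 higher and 1 lower between the EV groups (8.99% and 8.58%). At an unadjusted p under 0.05 in edgeR, 2 were higher and 1 lower in EnzR EVs against PBS (1.55% and 1.92% of all genes). There were 2 higher and 0 lower in EnzR EVs + HDL NPs against PBS (1.02% and 1.12%). Between the EV groups 1 was higher and 2 lower (3.58% and 6.97%). Dusp1, a phosphatase that switches off MAP kinases, stood at 480, 499 and 434 CPM in PBS mice and at 296, 395 and 290 in EnzR EV mice. These groups lay apart, like those of Nfkbiz and on the same side, with a log2 fold change of -0.53 (edgeR adjusted p = 0.928). Socs3, a brake on cytokine receptor signalling, was 36.1, 30.8 and 37.0 CPM in PBS mice and 73.5, 50.6 and 45.4 in EnzR EV mice (0.69, edgeR adjusted p = 0.928, and 0.48 without EnzR EVs replicate 1). Nlrc5, an activator of MHC class I genes, was 21.6, 38.4 and 34.4 CPM in PBS mice and 115, 65.9 and 93.0 with HDL NPs (1.52, edgeR adjusted p = 1.00), and Usp18, an interferon-induced protease, was 9.50, 17.6 and 14.8 against 32.0, 23.7 and 30.1 (1.02, edgeR adjusted p = 1.00).

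Of 55 known NF-kB target genes, 51 passed the filter and 0 passed the test by edgeR in any comparison. For EnzR EVs against PBS, 16 lay above and 35 below 0 (median -0.16, beside -0.03 for all genes), for EnzR EVs + HDL NPs against PBS 18 above and 33 below (median -0.10, beside -0.01), and between the EV groups 32 above and 19 below (median 0.13, beside 0.03). The sum of the marrow macrophage markers was also lower in EnzR EV mice than in PBS mice, as given above, though not every marker was. Vcam1 (log2 fold change -0.71) is in both lists, and without it the macrophage sums of these groups overlapped. At an unadjusted p under 0.05 in edgeR, 7 targets were lower and 1 higher for EnzR EVs against PBS (1.92% and 1.55% of all genes), 3 lower and 1 higher for EnzR EVs + HDL NPs against PBS (1.12% and 1.02%), and 3 lower and 2 higher between the EV groups (6.97% and 3.58%). Groups did not overlap for 8 targets lower and 2 higher, 7 lower and 3 higher, and 4 lower and 7 higher in the same order (4.52% and 3.43%, 6.21% and 6.96%, and 8.58% and 8.99% of all genes). The medians moved with single mice. For EnzR EVs against PBS the target median was -0.10 without EnzR EVs replicate 1, with 31 of 51 below 0, and -0.33 without EnzR EVs replicate 2. Between the EV groups it was 0.04 without EnzR EVs replicate 1, with 29 above and 22 below, 0.35 without EnzR EVs replicate 2 and 0.06 without EnzR EVs + HDL NPs replicate 2. For EnzR EVs + HDL NPs against PBS it was -0.03 without EnzR EVs + HDL NPs replicate 1 and also without PBS replicate 3, and -0.15 without EnzR EVs + HDL NPs replicate 2.

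Ptgs2, the inducible cyclooxygenase, was lowest in the EnzR EV mice, as Nfkbiz was by its group means. It stood at 91.5, 121 and 119 CPM in PBS mice, at 52.1, 64.9 and 48.7 in EnzR EV mice and at 78.7, 127 and 112 with HDL NPs. The EnzR EV mice lay wholly below both other groups, with log2 fold changes of -0.998 against PBS (edgeR adjusted p = 0.928) and 0.93 for EnzR EVs + HDL NPs against EnzR EVs (edgeR adjusted p = 0.461). The chemokine gene Ccl3 was 22.9, 23.8 and 24.6 CPM in PBS mice and 4.94, 14.7 and 5.56 in EnzR EV mice (-1.38, edgeR adjusted p = 0.928). Ccl4, its neighbour in function, was 19.0, 11.3 and 11.2 CPM in PBS mice and 8.11, 4.77 and 4.68 with HDL NPs (-1.22, edgeR adjusted p = 1.00). In the other direction, Irf1, a transcription factor shared with the interferon response, was 82.5, 130 and 122 CPM in PBS mice and 196, 181 and 164 with HDL NPs (0.69, edgeR adjusted p = 1.00), and the chemokine gene Cxcl10 was 1.58, 2.36 and 3.32 against 9.18, 4.05 and 6.01 (1.35, edgeR adjusted p = 1.00). Plau (0.13) and Ebi3 (0.077) lay wholly higher in EnzR EVs against PBS (edgeR adjusted p = 0.928 and 0.950). For EnzR EVs + HDL NPs against EnzR EVs, Bcl2l1 (-1.01) and Ier3 (-0.63) lay wholly lower and Fas (0.69) wholly higher (edgeR adjusted p = 0.461 for each).

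**Figure D5:**
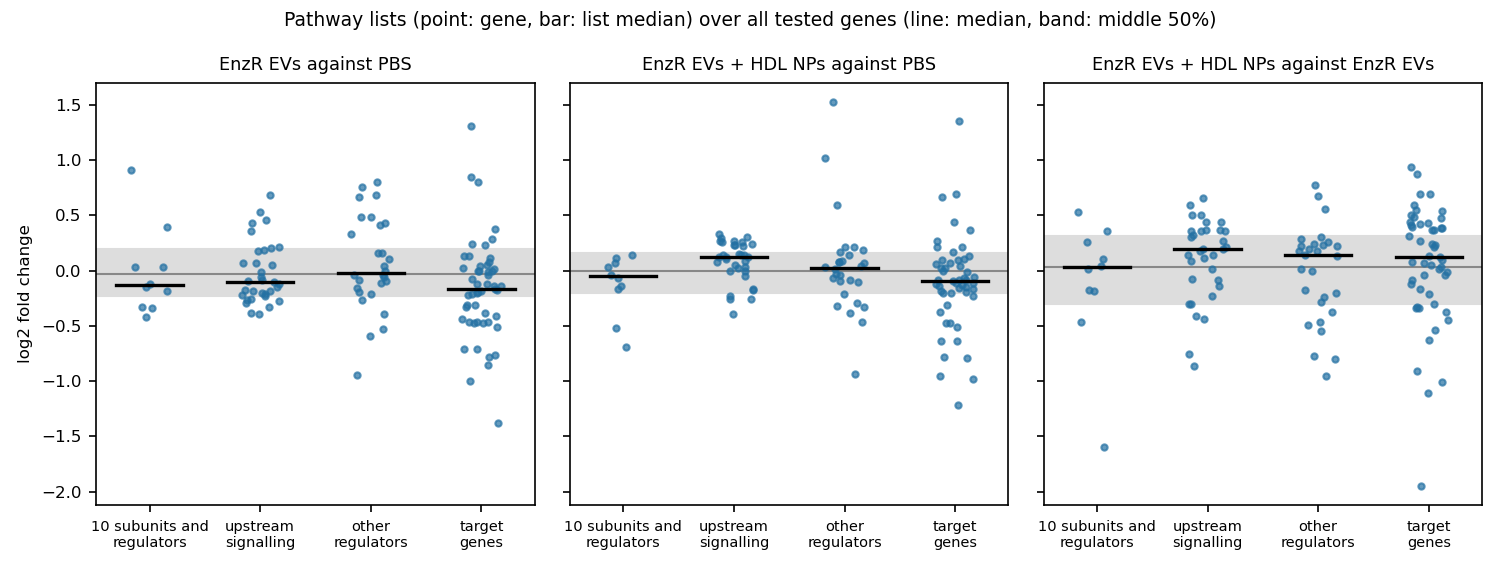
Log2 fold changes of the 10 genes and of the upstream signalling genes, other regulators and target genes (points, with the median of each list as a bar) in the 3 comparisons, over the median (line) and middle 50% (band) of all tested genes. The target median lies at -0.16 for EnzR EVs against PBS and at 0.13 between the EV groups. The band shows the spread of single genes and is no measure for a list median.

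Across the 9 libraries, the levels (log2 CPM) most like that of Nfkbia among the other tested genes were those of Erich1 (Pearson r = 0.976), Pgk1 (0.972) and Bcl2l15 (0.971). For Nfkbiz they were Cnst (0.944), Styk1 (0.938) and Trove2 (0.936), and for Rela Slc24a6 (0.970), Fam32a (0.958) and Zdhhc18 (0.958). These values describe the 9 libraries only, which also share differences in depth and in ribosomal reads, and they were chosen as the highest of 12553 genes.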

How the data were processed

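For each of 9 libraries the authors deposited unnormalized counts of reads per gene. They came from stranded total RNA (200 ng, rRNA depleted, 75 bp single-end reads) after adapter trimming (cutadapt 1.13), STAR alignment to mm10 and gene counting by htseq-count (HTSeq 0.6.1p1, per the labels) on the UCSC annotation. The strand setting is not given in the sources used here. The main test was that of edgeR 4.0.16 (R 4.3.3), with the default filter on low counts, TMM scaling, a robust quasi-likelihood fit to all 9 libraries with 1 coefficient per group, and Benjamini-Hochberg adjustment over 12553 genes with a threshold of 0.05. Log2 CPM values had a prior count of 2. DESeq2 1.42.0 and limma 3.58.1 were alternatives, beside other scalings, filters, sample sets and a replicate block. Gene models came from GENCODE M21 and promoters from RefSeq, both on GRCm38, which is the assembly of mm10. A floor of 3 counts is 0.166 to 1.16 CPM when scaled by library total without the TMM factor, for counting error only. With the TMM factor, as in the CPM values above, 3 counts were 1.65 CPM in EnzR EVs replicate 1. In EnzR EVs replicate 2 they were 0.160 CPM. Samples were grouped by their labels, and 0 columns were left unmapped.

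The members and gene lists were chosen with earlier results of these data known. Named pathway genes are some of those with, per list and comparison, the 2 highest and 2 lowest log2 fold changes among genes whose groups did not overlap. Mice with the same replicate number deviated together in EnzR EVs and PBS (r = 0.473, 0.492 and 0.131 across genes), while this did not hold for EnzR EVs + HDL NPs with PBS (0.061, 0.293 and -0.175) or with EnzR EVs (-0.036, 0.210 and 0.121). Mice with different numbers were also alike in EnzR EVs and PBS, at 0.430 for EnzR EVs replicate 2 with PBS replicate 3 and 0.156 for EnzR EVs replicate 3 with PBS replicate 2. The sources do not say what a number stands for. PBS replicates 2 and 3, the most similar pair, gave a chi-square per gene of 4.48, more than sampling noise allows.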

Additional observations from a re-analysis of the deposited data

How the results depend on the processing

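The 30 log2 fold changes of the 10 genes kept their direction under DESeq2, upper-quartile scaling, a filter of at least 10 counts in every library, fits to 6 libraries only, and without Rn45s and hemoglobin genes. Calls over all genes moved from 0 by edgeR to 14, 2 and 1 by DESeq2 in the order of the comparisons in the report, and to 1990, 10 and 653 by limma's voom with sample quality weights, which called 1 of the 10 genes. EnzR EVs against PBS gave 1 call with no filter, and 5 without the 2 libraries with the lowest totals. EnzR EVs + HDL NPs against EnzR EVs gave 1 call without those libraries and 1 with 6 libraries only. At an unadjusted p under 0.05 edgeR counted 436, 268 and 1325 genes. The causes of these moves were not tested. With the replicate block, EnzR EVs against PBS had 1 call over all genes, none of the 10, and 2 values turned sign: Nfkbie to -0.011 in EnzR EVs against PBS and Rel to -0.0063 in EnzR EVs + HDL NPs against PBS. The block changed no call of the 10 genes.

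Library size alone as the scaling shifted the median of all genes to -0.18 for EnzR EVs against PBS, to 0.047 for EnzR EVs + HDL NPs against PBS and to 0.24 for EnzR EVs + HDL NPs against EnzR EVs. In EnzR EVs against PBS it turned Rela to -0.14 and Nfkbie to -0.12, which lie above that median, and in EnzR EVs + HDL NPs against EnzR EVs it turned Rela to 0.055 and Tnfaip3 to 0.092, which lie below it. It turned Nfkbia to 0.016 in EnzR EVs + HDL NPs against PBS, below the median there. Quality weights turned Nfkb2 to 0.10 and Nfkbia to 0.053 in EnzR EVs against PBS, and Nfkb2 to -0.22, Nfkbia to -0.070 and Nfkbie to -0.25 in EnzR EVs + HDL NPs against EnzR EVs. Plain voom turned Nfkb2 to -0.024 there, and no filter turned Rela to -0.0019 in EnzR EVs against PBS. Without the 2 libraries with the lowest totals, Nfkb2 was 0.049 and Nfkbia 0.10 in EnzR EVs against PBS, and Nfkb2 -0.17, Nfkbia -0.13, Nfkbie -0.13 and Tnfaip3 0.018 in EnzR EVs + HDL NPs against EnzR EVs. The median of the 28 other regulators between the EV groups, less that of all genes, moved from 0.10 to -0.08 there.

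Leaving out each mouse in turn, all-gene calls ranged from 0 to 2 in EnzR EVs against PBS and from 0 to 1 in EnzR EVs + HDL NPs against EnzR EVs. In EnzR EVs against PBS the values ranged from -0.28 to 0.10 for Nfkb1, -0.39 to 0.0057 for Nfkb2, -0.040 to 0.13 for Rela, -0.31 to 0.089 for Nfkbia, -0.26 to 0.20 for Nfkbie and -0.21 to 1.35 for Bcl3. In EnzR EVs + HDL NPs against PBS they ranged from -0.25 to 0.069 for Relb, -0.25 to 0.21 for Rel, -0.12 to 0.035 for Nfkbia and -0.0039 to 0.31 for Nfkbiz. In EnzR EVs + HDL NPs against EnzR EVs they ranged from -0.17 to 0.23 for Nfkb2, -0.13 to 0.27 for Nfkbia, -0.13 to 0.33 for Nfkbie and -0.35 to 0.018 for Tnfaip3. EnzR EVs replicate 1 accounted for 8 of these sign changes, more than any other mouse. Relb had the fewest counts in EnzR EVs replicate 1, with 24.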
